A study of Gallus gallus with 8 samples.

Results

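The larger microchromosomes of the chicken, numbers 11 to 20 without chromosome 16, were examined for Nrf2 peaks in broiler (Gallus gallus) liver. All peaks on chromosomes 11, 12, 13, 14, 15, 17, 18, 19 and 20 (galGal6) were taken from 8 CUT&Tag peak lists and merged into regions where they overlapped or touched. This gave 3813 of the 30246 regions in the series, built from 8025 of its 66669 peaks. The rule names chromosomes by number and uses no measured value, but it was set with earlier results of these data known. There were 4 lists in each of the groups PT and HT, named after the sample titles. HT samples are labelled as high temperature. PT samples carry conflicting labels: a phloretin treatment (phloretin is a polyphenol found in apple) in one field and "Normal" in another. The protocol field states high temperature for PT as well as HT. What PT birds received is therefore not settled by the labels, and HT is compared with PT by name. The sources used here do not give age, sex or the number of birds, and no label ties the lists of a group to separate birds.

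Chicken chromosomes differ greatly in size, and the many small ones, the microchromosomes, are known as gene-dense and GC-rich, with short introns and a high rate of recombination. Nrf2, encoded by NFE2L2, is a basic leucine zipper factor that pairs with small Maf proteins and binds antioxidant response elements, while Keap1 holds it in the cytoplasm and directs its degradation in unstressed cells. In liver its known targets include genes for glutathione synthesis, quinone reduction and drug conjugation. In CUT&Tag an antibody brings a transposase to the bound protein, and the transposase cuts and tags the DNA nearby, open chromatin included. A peak marks a place where such fragments piled up. Genes at the peaks and the sequence under them are not given, because no genome or annotation of galGal6 was used here.

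The lists contain peaks and scores but no reads, so sequencing depth is unknown and no interval for counting error was possible. List length ranged from 5120 to 7302 peaks in PT and from 9437 to 11141 in HT, and it can set many of the counts below. The lists of a group are also not independent in appearance. On chromosomes 11 to 20, first and last base matched exactly, in regions with 1 peak from each list compared, for 63.1% to 81.9% of the peaks in the 6 PT pairs and for 62.2% to 76.9% in the 6 HT pairs. Between the groups 5 of 1580 such comparisons matched. The reason was not tested. The p-values below treat the 8 lists as independent and measure the spread between lists, which may be technical.

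Chromosomes 11 to 20 held more peaks in every HT list than in any PT list. The PT lists had 741, 527, 796 and 766 peaks there, and the HT lists 1255, 1376, 1191 and 1373. The means were 707.5 ± 122 and 1299 ± 91.3 (SD, n = 4 lists each), a ratio of 1.84 (exact two-sided permutation p = 0.0286, adjusted p = 0.0457 over 8 whole-group tests). The value 0.0286 is the smallest that 70 relabellings of 4 against 4 lists can give. Over a joint span of 134.9 Mb, measured to the last peak on each chromosome, this came to 5.24 ± 0.907 peaks per Mb in PT and 9.63 ± 0.677 in HT (SD, n = 4). The median gap between neighbouring peaks was 102 ± 13.4 kb in PT and 50.8 ± 1.30 kb in HT.

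The excess was smaller as a share of the list and smaller again among the peaks of highest score. As a share of each list, chromosomes 11 to 20 took 11.4%, 10.3%, 10.9% and 11.5% of the peaks in PT and 12.8%, 12.8%, 12.6% and 12.3% in HT. The difference was 1.60 percentage points, in the same direction in 4 of 4 HT lists (exact permutation p = 0.0286, adjusted p = 0.0457). The adjusted value depends on how many whole-group tests reached the smallest possible p. Peak number and covered length, which list length can set, were among these. The adjustment was not repeated without them, so whether the share would pass alone is not known. The difference in share was not past the threshold with the 5120 peaks of highest score in each list. PT lists then had 579, 527, 575 and 594 peaks on these chromosomes and HT lists 598, 604, 604 and 556, so the groups overlapped. That difference of 0.425 points had an exact permutation p of 0.314. In the upper 50% of each list by score, where lengths stayed unequal, the difference was 0.560 points (exact permutation p = 0.0571). List length and the loss of weak peaks cannot be told apart in the first of these settings. Covered length was 418 ± 63.6 kb in PT and 741 ± 44.5 kb in HT (exact permutation p = 0.0286, adjusted p = 0.0457), or 0.310% and 0.549% of the span. With 5120 peaks per list it was 341 ± 12.2 kb and 380 ± 13.2 kb, and the groups still did not overlap.

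Taken as sets, the HT to PT ratio was larger here than on chromosomes 1 to 5 and on chromosomes 6 to 10. Chromosome Z, with a span of 82.5 Mb, is in neither set and had a ratio of 2.49. Single chromosomes of the sets overlapped, with 1.51 on chromosome 11 and 1.68 on chromosome 10. Chromosomes 1 to 5 had 3128 ± 550 peaks in PT and 4446 ± 454 in HT, a ratio of 1.42. The log2 ratio of peaks on 11 to 20 to peaks on 1 to 5 within a list was -2.07, -2.17, -2.19 and -2.15 in PT and -1.74, -1.75, -1.74 and -1.86 in HT. This is a difference of 0.37 on the log2 scale, or 1.29-fold (exact permutation p = 0.0286, adjusted p = 0.0457), and with 5120 peaks per list it was 0.33 with the same p. Against chromosomes 6 to 10, where the ratio was 1.56, the log2 difference was 0.24, or 1.18-fold (exact permutation p = 0.0286, adjusted p = 0.0457). With 5120 peaks per list it was 0.16 (exact permutation p = 0.0571). As for the share of the list, the adjusted values of these log2 differences rest in part on the tests of peak number and covered length.

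Set against the smaller chromosomes, the ratio of mean peak numbers was the lower one here, but the tested difference was not clear. Chromosome 16 and chromosomes 21 to 33 together had 681 ± 69.7 peaks in PT and 1382 ± 68.8 in HT, a ratio of 2.03. The log2 ratio of 11 to 20 over these was 0.08, -0.18, 0.06 and 0.22 in PT and -0.08, -0.07, -0.14 and -0.06 in HT. The groups overlapped through the list PT 2, and the difference of -0.13 was not past the threshold (exact permutation p = 0.143, adjusted p = 0.19). Each list was left out in turn, and the largest difference, -0.21, was that without PT 2 (exact permutation p = 0.0286). With 5120 peaks per list the difference was -0.39 with the same p.

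Each of the 9 chromosomes had more peaks in every HT list than in any PT list. This is not particular to them, since it held on every numbered chromosome and on Z. Chromosome W went the other way, with 77.5 ± 1.73 peaks in PT and 45.5 ± 3.79 in HT (SD, n = 4). Over the 9 chromosomes the ratio of mean peak numbers ran from 1.51 on chromosome 11 to 2.18 on chromosome 15. These ranked 26th and 5th from the highest among 32 numbered chromosomes. Across the 9 chromosomes the ratio and the span had a Pearson r of -0.56 and a Spearman rho of -0.52. Across the 32 numbered chromosomes these were -0.51 and -0.77, so the relation is not particular to the 9. All points come from the same 8 lists, and chromosomes are not replicates.

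**Figure D1:**
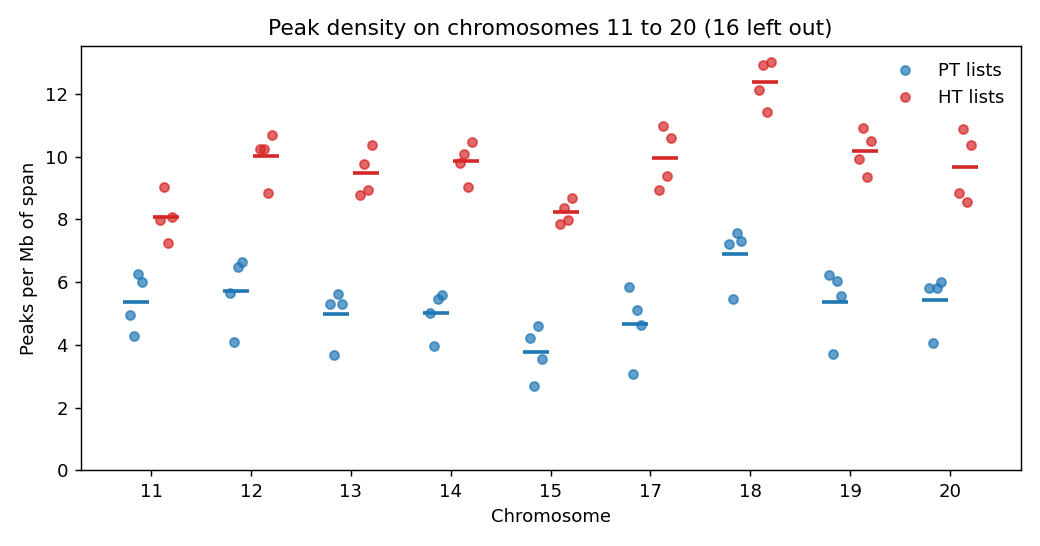
Peaks per Mb of span (vertical axis) on each of the 9 chromosomes (horizontal axis), 1 point per list, PT in blue and HT in red, with bars at the group means. HT points lie above PT points on all 9, from 8.08 against 5.37 peaks per Mb on chromosome 11 to 12.4 against 6.88 on chromosome 18.

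Chromosome 15 was sparse in PT and had the highest ratio of the 9. It held 55, 35, 60 and 46 peaks in the PT lists and 102, 109, 104 and 113 in the HT lists. PT density there was 3.77 peaks per Mb, the 31st of 32 numbered chromosomes, and HT density 8.22. Chromosome 17 had 63, 33, 55 and 50 peaks in PT and 96, 118, 101 and 114 in HT, a ratio of 2.13. On both, the lowest HT list exceeded the highest PT list by over 30 peaks.

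Chromosomes 14, 13 and 19 followed, with ratios of 1.97, 1.9 and 1.89. Chromosome 14 had 80.75 ± 11.8 peaks in PT and 159 ± 9.76 in HT. Chromosome 13 had 94.75 ± 16.7 and 180 ± 14.1, and chromosome 19 had 55.25 ± 11.9 and 104.5 ± 7 (SD, n = 4 each). These ratios differ little from each other, and no test was run between chromosomes.

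The remaining chromosomes 18, 20, 12 and 11 had ratios of 1.80, 1.78, 1.75 and 1.51. Chromosome 18 was the densest of the 9 in both groups, with 82, 62, 86 and 83 peaks in PT and 138, 147, 130 and 148 in HT. Chromosome 12 had 116.25 ± 23.9 and 204 ± 16.6 peaks, and chromosome 20 had 74.75 ± 12.6 and 133.25 ± 15.6 (SD, n = 4 each). Chromosome 11, with 100, 86, 126 and 121 against 161, 182, 146 and 163, was the 1 chromosome of the 9 with a lower share of the list in HT, at 1.59 ± 0.103% against 1.69 ± 0.117%, and these shares overlapped.

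In the exact permutation test of the share of a list on each chromosome, adjusted over the 34 chromosomes tested, 0 of the 9 passed the threshold, as did 0 of all 34 (0%). The smallest adjusted p was 0.0607, which every chromosome at the smallest possible exact permutation p of 0.0286 had. Over 34 chromosomes, a fully separated chromosome could pass only if many others were fully separated too. The 0 therefore does not show a lack of difference. At an unadjusted exact permutation p of at most 0.05, 5 of the 9 were higher in HT, against 13 of the 34 (38.2%). Those 5 were chromosomes 13, 14, 15, 17 and 18. The largest of their differences was 0.283 percentage points, on chromosome 14, where the share was 1.27 ± 0.0641% in PT and 1.55 ± 0.0432% in HT.

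With 5120 peaks per list the peak numbers of the groups did not overlap on 2 of the 9 chromosomes, with HT higher. Other chromosomes were not counted in this way, so whether these 2 differ from the rest is not known. Chromosome 14 then had 66, 64, 68 and 70 peaks in PT and 90, 80, 82 and 74 in HT, a ratio of 1.22. Chromosome 13 had 79, 70, 81 and 78 against 88, 87, 88 and 89, a ratio of 1.14. On chromosomes 11, 19 and 20 the mean was lower in HT at equal list length, with ratios of 0.854, 0.923 and 0.915, and the lists overlapped.

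**Figure D2:**
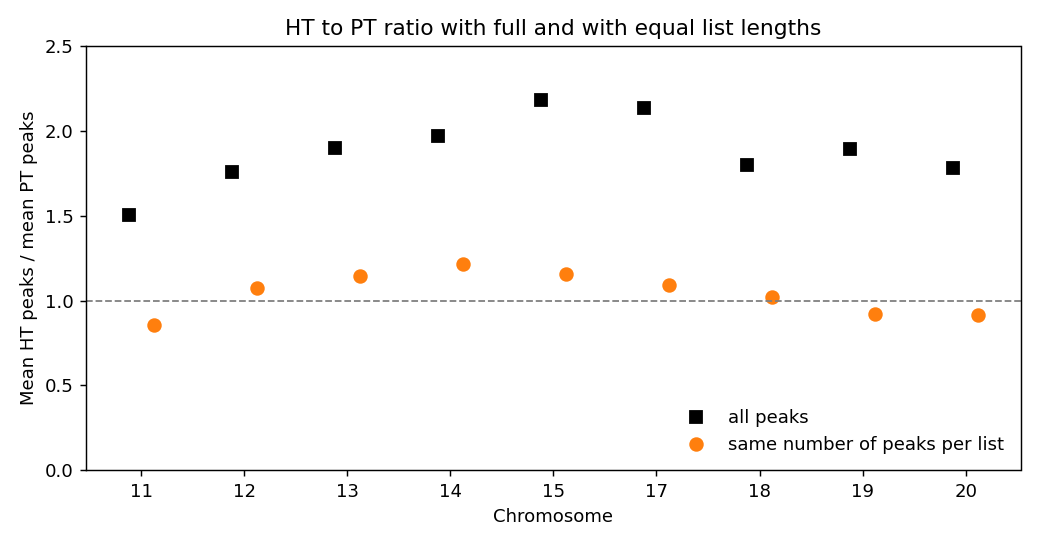
Mean HT peaks over mean PT peaks (vertical axis, dashed line at equal numbers) for each chromosome (horizontal axis), with all peaks (black squares) and with equal list lengths of 5120 peaks (orange circles). The ratios of 1.51 to 2.18 with all peaks become 0.854 to 1.22 with equal list lengths; error is not drawn, and the values per list are in the text for chromosomes 13 and 14.

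Each list was next ranked by the score of the authors' peak caller, and each peak was given its percentile within its own list. In HT, the peaks on chromosomes 11 to 20 ranked lower than in PT. Their median percentile was 47.6, 51.8, 48.3 and 49.99 in the PT lists and 45.1, 47.1, 46.4 and 45.0 in the HT lists, and the groups did not overlap. Elsewhere in the lists the median was 49.98 ± 0.385 in PT and 50.7 ± 0.118 in HT (SD, n = 4). That pooled value hides differences between chromosomes. The HT mean was also the lower one on each of chromosomes 1 to 5, with 51.4 ± 1.26 and 48.0 ± 0.422 on chromosome 1. It was lower on chromosomes 7, 8 and 10 and higher on 6 and 9. Both directions also occurred among chromosomes 16 and 21 to 33. The means were 38.5 ± 2.78 in PT and 48.9 ± 1.25 in HT on chromosome 26, and 74.8 ± 7.44 and 65.6 ± 3.64 on chromosome 30. On Z the HT mean was higher, with 46.6 ± 2.73 in PT and 53.3 ± 2.60 in HT. The top score decile of the list took 11.2 ± 0.862% of the PT peaks on these chromosomes and 8.49 ± 0.226% of the HT peaks, again without overlap. These ranks are descriptions and were not tested.

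Divided into deciles by score, the mean HT share on chromosomes 11 to 20 was highest among the weakest peaks, although HT 2 had its highest share in the 5th decile and HT 4 in the 3rd. In the lowest decile 14.4 ± 1.02% of HT peaks lay there, falling to 10.6 ± 0.105% in the highest. PT shares had no such slope, with 11.6 ± 2.48% in the lowest and 12.4 ± 0.854% in the highest decile. HT lists were above all PT lists in the 2nd, 3rd and 7th deciles. The PT lists were above all HT lists in the highest decile, with 12.03%, 12.5%, 11.5% and 13.5% against 10.6%, 10.8%, 10.6% and 10.6%.

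**Figure D3:**
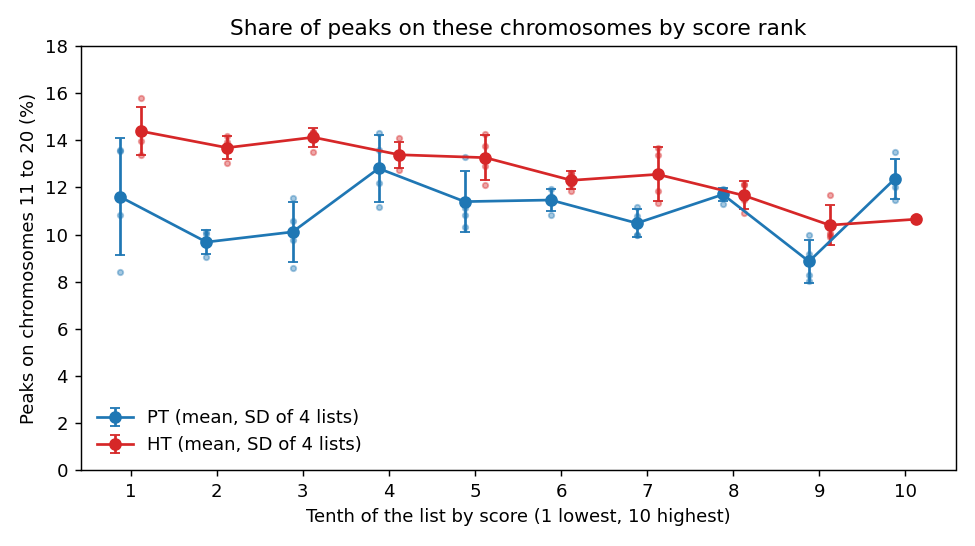
Percent of peaks on chromosomes 11 to 20 (vertical axis) in each decile of a list ordered by score (horizontal axis, 1 lowest and 10 highest), with group means, SD bars over 4 lists and the lists as small points. HT runs from 14.4% in the lowest decile to 10.6% in the highest, while PT is at 11.6% and 12.4%.

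By chromosome, the lower rank in HT was clearest on 19, 17 and 18. On chromosome 19 the median percentile was 57.0, 59.4, 55.5 and 58.5 in PT and 38.1, 46.7, 40.9 and 42.0 in HT. On chromosome 17 it was 56.95 ± 5.08 and 46.1 ± 3.83, and on chromosome 18 it was 54.9 ± 3.32 and 46.1 ± 1.95 (SD, n = 4 each). The groups did not overlap on these 3 chromosomes and overlapped on the other 6. A lack of overlap was not limited to these 3. The means and SDs leave no room for overlap on chromosome 1, with PT higher, or on chromosomes 26 and 31, with HT higher. On chromosome 31 they were 53.8 ± 2.89 in PT and 64.7 ± 2.15 in HT. Overlap in rank was not counted on every chromosome outside this set, so the share without overlap there is not known. On chromosomes 12 and 13 the HT mean was the higher one, by 2.72 and 2.18 percentile points.

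Peak width was much the same. The median peak on chromosomes 11 to 20 was 485, 483, 469.5 and 486 bp wide in PT and 494, 475.5, 487 and 486 bp in HT. The difference of 4.75 bp was not past the threshold (exact permutation p = 0.371, adjusted p = 0.424), and the groups overlapped on each of the 9 chromosomes. In the rest of the genome the medians were 484 ± 5.89 bp and 499.75 ± 4.11 bp, but chromosomes differed there. On Z they were 467 ± 16.2 bp in PT and 542.75 ± 7.41 bp in HT. Chromosome 4 went the other way, with 482.75 ± 5.12 bp and 477.25 ± 4.11 bp. Peaks under 260 bp made up 6.88 ± 1.15% in PT and 4.17 ± 0.0774% in HT, and peaks over 1000 bp 6.52 ± 0.975% and 5.06 ± 0.471% (SD, n = 4 each). Both shares were higher in every PT list than in any HT list. In number, peaks under 260 bp were 45, 45, 54 and 47 in PT and 52, 59, 49 and 57 in HT, so PT had the higher shares but not the higher numbers of narrow peaks.

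Peaks gathered at the chromosome ends in both groups. The outermost 1 Mb at each end made up 13.3% of the joint span and held 24.0%, 27.5%, 22.6% and 23.1% of the peaks in PT and 24.3%, 22.7%, 23.6% and 22.3% in HT. The difference of -1.08 points was not past the threshold (exact permutation p = 0.486, adjusted p = 0.486). It depended on the settings: with 500 kb ends it was -3.13 points, and with 5120 peaks per list 4.96 points, each with an exact permutation p of 0.0286. By chromosome, the outer share of peaks was above that of the span on 11, 12, 13, 14, 18 and 19 in both groups. It was near that of the span on 15, 17 and 20. On 15 the outer parts were 15.4% of the span and held 17.3 ± 0.633% of peaks in PT and 16.8 ± 1.72% in HT. On 17 they were 18.6%, with 16.9 ± 2.94% and 17.6 ± 1.51%, and on 20 they were 14.5%, with 15.3 ± 2.16% and 14.4 ± 1.18%. Over the 9 together, start and end took like parts, with 12.01 ± 0.770% and 12.3 ± 1.45% of the peaks in PT and 11.8 ± 0.345% and 11.5 ± 0.595% in HT. Single chromosomes could be one-sided. On chromosome 18 the first Mb had 3.25 ± 2.87 of 35.5 ± 3.11 outer peaks in PT and 5 ± 1.41 of 44.75 ± 3.30 in HT. On chromosome 19 it had 16.25 ± 1.5 of 19.5 ± 2.38 in PT and 24.5 ± 2.38 of 33.25 ± 3.30 in HT.

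Chromosomes 12 and 18 went opposite ways at their ends. On chromosome 12 the outer 1 Mb held 22, 14, 20 and 21 peaks in PT and 57, 52, 50 and 54 in HT, or 16.7 ± 1.79% and 26.2 ± 1.57% of its peaks. On chromosome 18 it held 36, 31, 38 and 37 peaks in PT and 49, 45, 44 and 41 in HT, or 45.7 ± 2.90% and 31.9 ± 3.47% (SD, n = 4 each). Both pairs of percentages were without overlap between the groups, and on the other 7 chromosomes they overlapped. Overlap was not counted outside the 9, where outer shares also shifted both ways. The share was 51.0 ± 7.05% in PT and 35.9 ± 2.30% in HT on chromosome 21. On chromosome 25 it was 41.9 ± 1.87% and 54.1 ± 2.28%. Away from its ends, chromosome 18 had 42.75 ± 7.89 peaks in PT and 96 ± 10.1 in HT, a ratio of 2.25, against 1.26 in its outer parts.

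Along windows of 1 Mb, higher HT counts were spread over all 9 chromosomes. All 4 HT lists exceeded all 4 PT lists in 67 of 141 windows with a peak (47.5%), against 36.0% of the 1067 windows on all chromosomes. The reverse held in 1 window (0.709%), against 1.22% over all. The share of such HT windows ran from 42.9% on chromosomes 11, 12, 15 and 20 to 63.6% on chromosome 19. With 5120 peaks per list, 16 windows were higher in HT and 15 in PT (11.3% and 10.6%), against 8.91% and 12.9% over all chromosomes. In the upper 50% of each list by score, 33 windows (23.4%) were higher in HT, against 24.2% over all, so the higher share of such windows on these chromosomes was not seen there.

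The 1 Mb window with the most HT-only regions (regions in all 4 HT lists and no PT list) was picked on each chromosome. The first Mb of chromosome 12 had 18 of them, with 15, 7, 12 and 12 peaks in PT and 38, 36, 35 and 37 in HT. Next were 1 to 2 Mb of chromosome 13, with 14 HT-only regions, 7.75 ± 0.957 peaks in PT and 25.75 ± 2.5 in HT. On chromosome 18 it was the window from 4 to 5 Mb, with 4, 2, 7 and 5 peaks against 19, 20, 18 and 20. Every HT list held more peaks than any PT list in these 3 windows, which largely follows from how they were picked.

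The picked windows of the other 6 chromosomes had 7 to 10 HT-only regions. On chromosome 15 the window from 10 to 11 Mb was the 1 case of overlap, with 10, 5, 8 and 2 peaks in PT and 10, 10, 12 and 14 in HT. Windows picked for PT-only regions, defined the other way round, had 3 to 8 of them. The fullest was 4 to 5 Mb of chromosome 20, with 8 PT-only regions beside 6 HT-only regions and overlapping counts of 11, 10, 11 and 11 peaks in PT and 9, 12, 9 and 17 in HT. The 1 window with more peaks in every PT list was 12 to 13 Mb of chromosome 13, singled out after its values were seen. It held 10, 5, 6 and 6 peaks in PT, 2, 0, 0 and 4 in HT, 4 PT-only regions and 0 HT-only regions.

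Merged over the lists, most regions were found in few of them. Of the 3813 regions, 2218 (58.2%) came from a single list, against 55.9% of all regions in the series. HT lists alone held 2272 regions (59.6%, against 57.0% of all regions) and PT lists alone 1362 (35.7%, against 36.2%), both near the whole series. Peaks of both groups were in 179 (4.69%), against 6.81% of all regions. The share with both groups was 4.63% on chromosomes 1 to 5 and 5.32% on chromosomes 6 to 10. It was 10.6% on chromosome 16 and chromosomes 21 to 33. On chromosome 17 the share with both groups was 1.55%, the lowest of the 32 numbered chromosomes, and on chromosome 18 it was 7.81%.

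There were 584 HT-only regions (15.3%), against 14% of all regions. The PT-only regions numbered 238 (6.24%), against 6.83%. All 8 lists held 70 (1.84%), against 2.41%. Each share is near that of the whole series. With 5120 peaks per list there were 211 HT-only regions (9.39%, against 9.07% of all), 180 PT-only (8.01%, against 8.61%) and 56 in all 8 lists (2.49%, against 2.74%). These shares too are near those of the whole series. Identical first and last bases in 2 or more lists were found for 574 HT-only regions (98.3%) and 235 PT-only regions (98.7%).

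Sharing between the groups was uneven along these chromosomes. A PT list also held 103 of the 687 regions that every HT list held (14.99%). An HT list also held 94 of the 332 regions that every PT list held (28.3%). Elsewhere in the genome these shares were 22.0% and 34.9%, but they differed between sets of chromosomes. They were 16.1% and 23.5% on chromosomes 1 to 5, and 18.9% and 32.1% on chromosomes 6 to 10. On chromosome 16 and chromosomes 21 to 33 they were 25.2% and 48.5%. On chromosome 18, 20 of 42 regions that every PT list held (47.6%) recurred in HT. On chromosome 17 it was 3 of 21 (14.3%) and on chromosome 20 it was 6 of 37 (16.2%). A list with more peaks meets more regions of the other group, so the shares for PT and HT regions cannot be set against each other.

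The Jaccard index, the bases that both lists cover over the bases that either covers, also differed between chromosomes, in an order that was not that of the shares above. On chromosomes 11 to 20 it averaged 0.444 within PT (0.352 to 0.550, 6 pairs), 0.498 within HT (0.454 to 0.614, 6 pairs) and 0.117 between the groups (0.110 to 0.128, 16 pairs). Between the groups it was highest on chromosome 14, with a mean of 0.234, followed by 0.174 on both chromosome 18 and chromosome 19. It was lowest on chromosome 20, at 0.0221, and chromosome 17, at 0.0360. On each of the 9 chromosomes the lowest pair within a group lay above the highest pair between groups. This is not particular to them. In the rest of the genome the index averaged 0.471 within PT (lowest 0.369) and 0.489 within HT (lowest 0.441). Between the groups it averaged 0.109 there (0.100 to 0.118), slightly below the 0.117 found here, with overlapping ranges. The shares of recurring regions above differed the other way, being lower here than elsewhere.

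**Figure D4:**
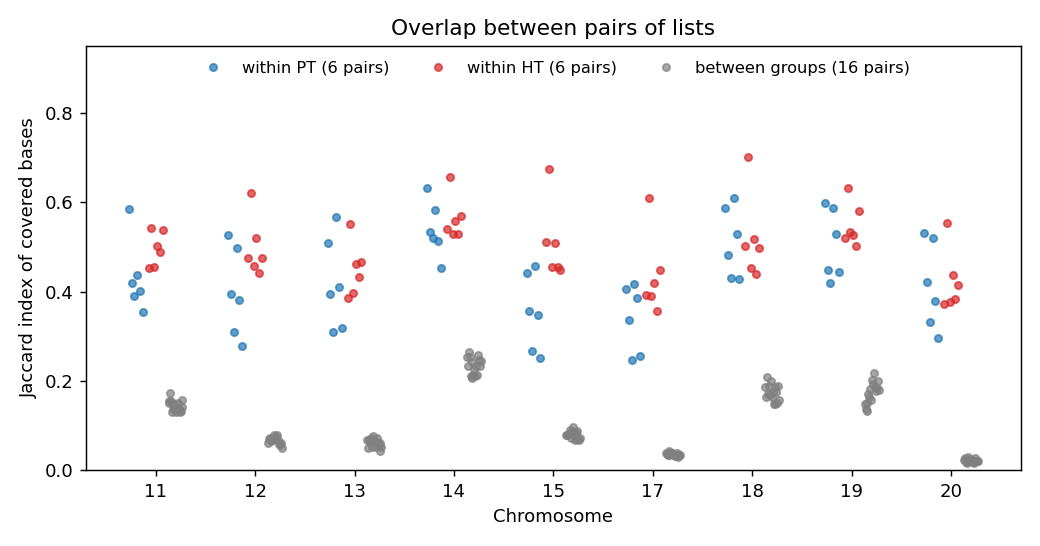
Jaccard index of covered bases (vertical axis) for each pair of lists on each chromosome (horizontal axis): 6 pairs within PT (blue), 6 within HT (red) and 16 between the groups (grey). Grey points range from a mean of 0.0221 on chromosome 20 to 0.234 on chromosome 14 and stay below the blue and red points on each chromosome.

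Regions in all 8 lists lay mostly at the chromosome ends. Of the 70, 55 (78.6%) were in the outermost 1 Mb, 27 of them at the start and 28 at the end. Of HT-only regions 20.9% were there, of PT-only regions 14.7%, and of all 3813 regions on these chromosomes 17.4%. The regions in all 8 lists had a median distance from the nearer end of 0.267 Mb, against 3.06 Mb for HT-only and 3.18 Mb for PT-only regions. The same share was 14.7% of 204 such regions on chromosomes 1 to 5, where the outer parts are 1.64% of the span, and 25.7% of 74 on chromosomes 6 to 10, where they are 6.73%. On chromosome 16 and chromosomes 21 to 33 it was 42.1% of 133, with outer parts of 36.7%. These shares were not tested against each other.

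**Figure D5:**
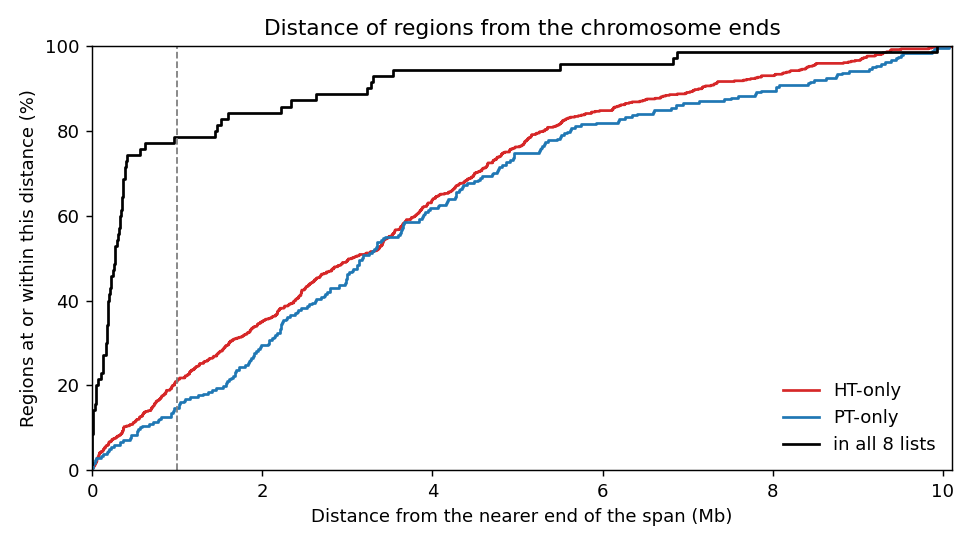
Percent of regions (vertical axis) at or within a given distance in Mb from the nearer end of the span (horizontal axis; dashed line at 1 Mb) for HT-only (red), PT-only (blue) and all-8-list (black) regions. The black curve reaches 78.6% at 1 Mb, where the red and blue curves are at 20.9% and 14.7%.

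Which end held them differed by chromosome. On chromosome 14, 11 of 13 lay in the first Mb and 0 in the last, and on chromosome 19 all 6 lay in the first. On chromosome 18, 13 of 14 lay in the last Mb, and on chromosome 17 all 3 did. Many were close together, so they are not separate cases. The 11 on chromosome 14 lay 0.106 to 0.411 Mb from the end, and the 13 on chromosome 18 lay 0.217 to 0.395 Mb from it. Chromosomes 11 and 12 had 3 at the start and 5 at the end each, of 11 and 12 in all. Chromosome 20 had 4 such regions and 0 of them at an end. These regions were wide, with a median of 1219.5 bp against 513 bp for HT-only and 477 bp for PT-only regions; part of this is built in, since they merge peaks of 8 lists. They also ranked high: their median score percentile was 88.3 to 93.5 in the PT lists and 96.8 to 97.2 in the HT lists. Part of this may be built in too, since all 8 lists had to call these regions. HT-only regions had medians of 51.6 to 52.6 and PT-only regions of 54.5 to 60.8 in their lists.

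Individual regions are named by the highest mean score percentile per chromosome and class, with the 5 highest over the 9 chromosomes. Scores are those of the authors' caller and rank peaks within a list. Among regions of all 8 lists, the first was chr15:267940-271577, 3638 bp wide, with scores of 1223.5, 1214.28, 1228.13 and 1226.91 in PT and 1372.43, 1369.17, 1354.45 and 1321 in HT. Next was chr14:129819-132082, 2264 bp wide, with 1007.11, 1163.2, 1160.92 and 1268.19 in PT and 923.04, 1080.9, 905.14 and 880.65 in HT. Both lie within 0.3 Mb of the chromosome start and have the highest mean percentiles of the 9 chromosomes, 99.9 and 99.8.

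The next 3 of these lay close to an end: chr14:409234-413527 with scores of 547.19 to 756.16, chr18:11055177-11055984 with 571.85 to 668.08, and chr12:20369133-20370251 with 469.08 to 511.12. The highest on the other chromosomes were chr11:19984347-19987817 (315.58 to 553.93), chr13:19015315-19020039 (202.62 to 335.28), chr17:10755452-10756517 (173.2 to 325.68) and chr19:174569-177917 (182.25 to 297.74). On chromosome 17 the PT scores of 245.74 to 325.68 stood above the HT scores of 173.2 to 216.26; on chromosome 19 the PT scores of 182.25 to 235.23 stood below the HT scores of 287.43 to 297.74. Across lists such scores cannot be read as binding strength. The highest on chromosome 20, chr20:1447894-1449099, had scores of 55.96 to 79.72 and a mean percentile of 68.0. It was the 1 of the 10 named regions of this class outside the outermost 1 Mb. The widest region of the series, chr14:14634551-14644740 at 10190 bp, was also in all 8 lists and was singled out after its width was seen.

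HT-only regions of high rank were of mixed width. The first was chr13:524516-525243, 728 bp wide, with scores of 142.09, 168.89, 163.73 and 172.5 in HT lists 1 to 4 and different peak ends in each. The second, chr20:1620743-1620974, was 232 bp wide with 137.35, 140.31, 142.86 and 136.89, and all 4 HT lists gave the same ends. It was followed by chr11:20160463-20160705 (115.8 to 182.53), chr11:8124647-8124858 (115.8 to 172.71) and chr12:2497995-2498860 (107.76 to 126.33). The widest of the 10 named was chr15:4536489-4538402, at 1914 bp, with 105.33, 114.8, 89.42 and 106.74.

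The other HT-only regions named were chr18:11034213-11034655 (scores 92.29 to 132.89), chr19:10116766-10117810 (77.72 to 138.5), chr17:5854838-5855111 (90.8 to 104.15) and chr14:10979845-10980378 (68.96 to 155.38). Their mean percentiles in the HT lists were 91.9 to 95.4. The one on chromosome 18 lies shortly before the region of all 8 lists named above, in the same outermost 1 Mb of that chromosome.

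PT-only regions of high rank were narrow. Of the 10 named, 9 were under 300 bp and 9 had the same ends in all 4 PT lists. The first was chr14:16148341-16148546, 206 bp wide, which is also the last peak on that chromosome, with scores of 186.17, 186.17, 186.17 and 184.09 in PT lists 1 to 4. The second was chr15:12349125-12349551, 427 bp wide, with 179.88, 195.55, 179.88 and 179.88. Equal scores recurred between lists and between places: 186.17 was also the score of list PT 2 in chr11:17706407-17706610, and 175.78 was given by PT 1 both there and in chr12:14110613-14110816. Such recurrence was not particular to narrow or PT-only regions. On the chromosomes studied here, 67.2% to 80.5% of PT peaks and 83.5% to 85.6% of HT peaks had a score seen elsewhere in their list. Among peaks under 260 bp these shares were 86.7% to 88.9% in PT and 91.5% to 96.2% in HT.

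The further PT-only regions were chr12:16396700-16396924 (139.64 to 182.48), chr20:11584351-11584558 (125.43 to 146.41), chr13:16608493-16608769 (132.93 to 136.96), chr19:2277207-2277490 (112.62 to 131.35), chr17:7777089-7777292 (106.8 to 119.26) and chr18:3901412-3901691 (85.01 to 100.6). Their widths were 204 to 284 bp. Without peaks under 260 bp, 19 of the 30 named regions were left in their class. The handling of duplicate reads is not given in the sources used here. Its part in narrow or equal-scored peaks of either group was not tested.

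Distances between HT-only and PT-only regions were measured with no expected value to set them against. The median distance from a PT-only region to the nearest HT-only region was 57.3 kb, and 37 of 238 (15.5%) had one within 10 kb. From HT-only to PT-only regions it was 146 kb, with 40 of 584 (6.85%) within 10 kb. There are fewer PT-only than HT-only regions to meet, so the distances cannot be set against each other.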

How the data were processed

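Nrf2 CUT&Tag peak lists of 8 broiler liver samples were used, 1 per sample, grouped and numbered by title (4 PT, 4 HT). Per the submitters' processing notes, cutadapt 1.9.2, Bowtie2 2.2.4 and galGal6 were used; peak names begin with MACS. The sources used here do not give caller settings, duplicate handling, control or pooling. The deposited lists hold position, name and the score of the authors' caller, whose scale is not stated and which is at least 40. Other values of the authors' deposited lists are peak starts and ends; starts were raised by 1 to 1-based positions.

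Peaks that overlapped or touched were merged, and a list held a region with at least 1 peak in it. Lengths of chromosomes were taken to the last peak of any list. For group values the test was an exact permutation test, two-sided, of the 70 possible relabellings, with Benjamini-Hochberg adjustment over 8 whole-group tests, and for shares per chromosome over 34 chromosomes. Named regions were, per class (HT-only, PT-only, all 8 lists), the highest mean score percentile on each chromosome and the 5 highest overall; named windows were those of 1 Mb with most HT-only or PT-only regions. The members, lists and rules were chosen with earlier results of these data known. Other settings tried were the 50% of each list with the highest scores, 5120 peaks per list, no peaks under 260 bp, other denominators, no outer 1 Mb, 500 kb ends or windows, merging over 500 bp, 50% cover, a block for the replicate number and the omission of each list in turn; the setting without shared peak ends and the count of named regions were added after the data were seen. The class counting was tested on simulated lists for HT against PT and recovered all 882 HT-only, 441 PT-only and 224 common simulated regions. Simulated regions were kept apart and had 1 peak per list, so this checks the code only. Neighbouring regions that merge and several peaks of a list in 1 region were not simulated. Python 3.11.15, numpy 2.4.6, scipy 1.17.1, pandas 2.3.3 and matplotlib 3.10.9 were used. Peak annotation and motifs were not analysed here, since the gene table at hand is of another assembly.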

Additional observations from a re-analysis of the deposited data

Results flagged for a closer look

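Among 18 measures tested by Dixon's criterion in each group of 4 lists, 2 values stood apart; 36 groups were tested and chance marks about 1 in 20. The list PT 2, the shortest, covered 323.4 kb of chromosomes 11 to 20, while the other PT lists covered 438.9 to 459.2 kb. Without it the HT minus PT difference was 291.3 kb, against 322.8 kb with it. In HT 4 the log2 ratio of peaks on chromosomes 11 to 20 to peaks on chromosomes 1 to 5 was -1.86, while the other HT lists had -1.75 to -1.74. Without HT 4 the difference between the groups was 0.40, against 0.37 with it.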

How the results depend on the processing

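Of 198 alternative values for the whole-group results, 168 kept their direction and side of the threshold or, for counts, stayed within 1.5 times; many omit 1 list, and lists of a group have many peak ends in common. The causes of the exceptions were not tested beyond what a setting fixes. With 5120 peaks per list, the HT minus PT differences were 21.75 peaks, 0.425 points of share, -22.6 bp of median width, 4.96 points in the outer 1 Mb and log2 ratios of 0.16 to chromosomes 6 to 10 and -0.39 to chromosomes 16 and 21 to 33, with 211 HT-only regions and 16 HT and 15 PT windows. Shares on chromosomes 19 and 20 turned to -0.0732 and -0.0977 points. In the highest-scoring 50% the values were 0.560 points of share, 0.11 and -0.27 for those log2 ratios, 226 HT-only regions (12.7%, against 12.8% of all), 105 PT-only (5.92%, against 6.57%), 33 HT windows (23.4%, against 24.2%) and 5 PT windows (3.55%, against 3.1%); shares on chromosomes 18 and 19 turned to -0.0747 and -0.199 points. Without peaks under 260 bp the width difference was -2.38 bp. Ends of 500 kb gave -3.13 points and 500 kb windows 3 PT windows. Leaving out each list gave log2 ratios to chromosomes 16 and 21 to 33 from -0.21 to -0.076 and 1 to 3 PT windows. Without the outer 1 Mb 15 regions of all 8 lists were left. Where no 2 lists share both ends, a setting chosen after seeing the data, the counts were 10 HT-only and 3 PT-only regions, with 3 in all 8 lists. The replicate block left differences of 591.25 peaks, 1.60 points, 322.8 kb and log2 ratios of 0.37 and 0.24, each with an exact p of 0.125, the lowest possible when the signs of 4 pairs are flipped. The numbers showed no pairing: the deviations of same-numbered lists had correlations of 0.00327, 0.0087, 0.0156 and 0.00191, and for 1 PT list of 4 the best match was the HT list of its number. Depth is unknown, so a missing peak may only be too shallow to call.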
